A study of Homo sapiens with 2 samples.

Results

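The core transcription factors of the hepatocyte were followed in open chromatin of HepG2 cells, an established human liver cancer line. The 8 factors were HNF4A, FOXA1, FOXA2, FOXA3, CEBPA, CEBPB, ONECUT1 and PROX1, and their peaks were all rows of the deposited annotation lists that carry one of these gene names. This gave 130 of 56159 peaks, and all 8 factors had at least 1 peak, as did 52.7% of 20052 protein-coding genes. Chromatin was examined by FAIRE-seq, in which sonicated, crosslinked chromatin is extracted so that DNA free of nucleosomes is recovered and sequenced. Both cultures were transduced with lentiviral particles and fixed with formaldehyde. In the control (CT) the particles encoded a scrambled hairpin, and in the NR2E3-depleted cells (KO II) a hairpin that targets NR2E3, an orphan nuclear receptor. Each group had 1 library, so no value had a replicate and no test between the conditions was possible. The depleted library came from 1 of the hairpins that the study used, so an effect of that hairpin alone, of the transduction or of the library cannot be told apart from NR2E3 loss.

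Several of these factors help to hold one another's genes, and the genes of liver metabolism, in an active state. FOXA1, FOXA2 and FOXA3 are winged-helix pioneer factors that bind nucleosomal DNA, and HNF4A is a nuclear receptor that acts as a central regulator of hepatocyte genes. CEBPA and CEBPB are leucine zipper factors, of which the first is tied to the quiescent, metabolic hepatocyte and the other to acute phase and regenerative responses. ONECUT1 (HNF6) is a cut homeodomain factor and PROX1 a homeodomain factor, and both act in liver development. FAIRE measures neither transcript nor protein, so neither the loss of NR2E3 nor the expression of the factors was measured here.

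The peaks came in 3 lists, which are called common, control-specific and depleted-specific. A peak score is the deposited scaled number of sequence tags, with 1 tag worth 0.407 in the common and control-specific lists and 0.507 in the depleted-specific list. Scores are therefore given as levels within a list, and tag numbers are given with a 95% Poisson interval that covers counting error only, since tags are not shown to be independent molecules. A common peak carries a score on the control scale and none on the depleted scale. The total depth of the libraries is unknown. A promoter peak is one that the deposited annotation places in its promoter class, and every other peak is called distal. Coordinates are those of hg38.

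Sequences at some of the open starts of the factors, with the highest distal peak among them, are shown first. Each is the longest stretch of its peak, up to 300 bases, that lies outside annotated exons and outside the 1000 bp downstream of a listed start of its gene. All are the plus strand of the hg38 reference. Capitals mark exact matches on either strand to the 9 motifs that were searched. These were FOXA (TGTTTAC or TGTTTGC), HNF4 (CAAAGTCC), C/EBP (TTGCNNAA), ONECUT (ATCGATTA, ATCAATAA or ATCGATAA), HNF1, Sp1 (GGGCGG), NFY (CCAAT), KLF (CCACACCC or CCACGCCC) and NR2E, the core of the NR2E3 receptor family's site (AAGTCA).
HNF4A P2, common, chr20:44355461-44355698: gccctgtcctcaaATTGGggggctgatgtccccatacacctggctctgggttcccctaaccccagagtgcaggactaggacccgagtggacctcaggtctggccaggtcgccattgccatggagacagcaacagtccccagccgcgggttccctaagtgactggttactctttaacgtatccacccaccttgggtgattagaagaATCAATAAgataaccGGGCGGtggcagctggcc
HNF4A P1, common, chr20:44401001-44401238: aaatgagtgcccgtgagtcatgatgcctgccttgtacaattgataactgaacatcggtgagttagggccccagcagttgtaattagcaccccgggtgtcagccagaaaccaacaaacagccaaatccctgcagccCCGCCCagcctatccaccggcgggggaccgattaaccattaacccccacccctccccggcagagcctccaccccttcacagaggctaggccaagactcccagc
FOXA2 start, common, chr20:22585491-22585783: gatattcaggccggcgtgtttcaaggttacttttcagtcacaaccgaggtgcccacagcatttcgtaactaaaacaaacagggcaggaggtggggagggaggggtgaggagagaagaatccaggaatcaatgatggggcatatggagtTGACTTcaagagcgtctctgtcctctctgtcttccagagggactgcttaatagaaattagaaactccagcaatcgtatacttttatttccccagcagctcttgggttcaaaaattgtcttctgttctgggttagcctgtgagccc
CEBPA start, depleted-specific, chr19:33302706-33302820: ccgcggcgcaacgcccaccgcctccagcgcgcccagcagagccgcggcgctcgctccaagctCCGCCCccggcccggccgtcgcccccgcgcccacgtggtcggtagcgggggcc
CEBPB start, depleted-specific, chr20:50190286-50190462: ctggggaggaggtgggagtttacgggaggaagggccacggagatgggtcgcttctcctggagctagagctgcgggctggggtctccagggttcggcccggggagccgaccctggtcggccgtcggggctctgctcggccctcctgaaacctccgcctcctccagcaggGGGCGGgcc
FOXA1 distal, common, chr14:37466430-37466729: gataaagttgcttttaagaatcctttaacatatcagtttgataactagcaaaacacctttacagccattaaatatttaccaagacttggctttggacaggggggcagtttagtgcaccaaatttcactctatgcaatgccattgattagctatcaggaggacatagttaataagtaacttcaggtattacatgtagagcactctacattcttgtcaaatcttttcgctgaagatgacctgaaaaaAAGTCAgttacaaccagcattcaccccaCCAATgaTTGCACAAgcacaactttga

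The HNF4A P2 stretch held 1 ONECUT match, 1 Sp1 match and 1 NFY match, and the P1 stretch held 1 Sp1 match. The FOXA2 stretch held 1 NR2E match. The CEBPA and CEBPB stretches held 1 Sp1 match each. Of the stretches not printed, that of the control-specific HNF4A promoter peak held no match. That of a common peak upstream of FOXA3 held 2 Sp1 matches. The FOXA1 starts and the control-specific CEBPB promoter peak left too short a stretch to print. The distal FOXA1 stretch held 1 match each to C/EBP, NFY and the NR2E match. A match is a string of letters and does not show a bound factor.

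Of the 130 peaks of the factors, 39 were common, 41 were control-specific and 50 were depleted-specific. The ratio of depleted-specific to control-specific peaks was 1.22 (95% exact binomial interval 0.791 to 1.89, counting error only), against 1.57 (1.54 to 1.61) over all peaks. FOXA1 alone held 84 of the 130 peaks. Without FOXA1 the numbers were 15, 8 and 23, with a ratio of 2.88 (1.24 to 7.43). The ratio thus lay below that of all peaks with FOXA1 and above it for the other 7. Both intervals held the value of all peaks. At scores of 6.08 or more the ratio was 1.83 (1.09 to 3.15) for the factors and 2.61 (2.54 to 2.68) for all peaks. The number of peaks ran from 84 for FOXA1 through 18 for HNF4A, 10 for PROX1, 7 for CEBPB and 4 for FOXA2 to 3 each for CEBPA and ONECUT1 and 1 for FOXA3.

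**Figure D1:**
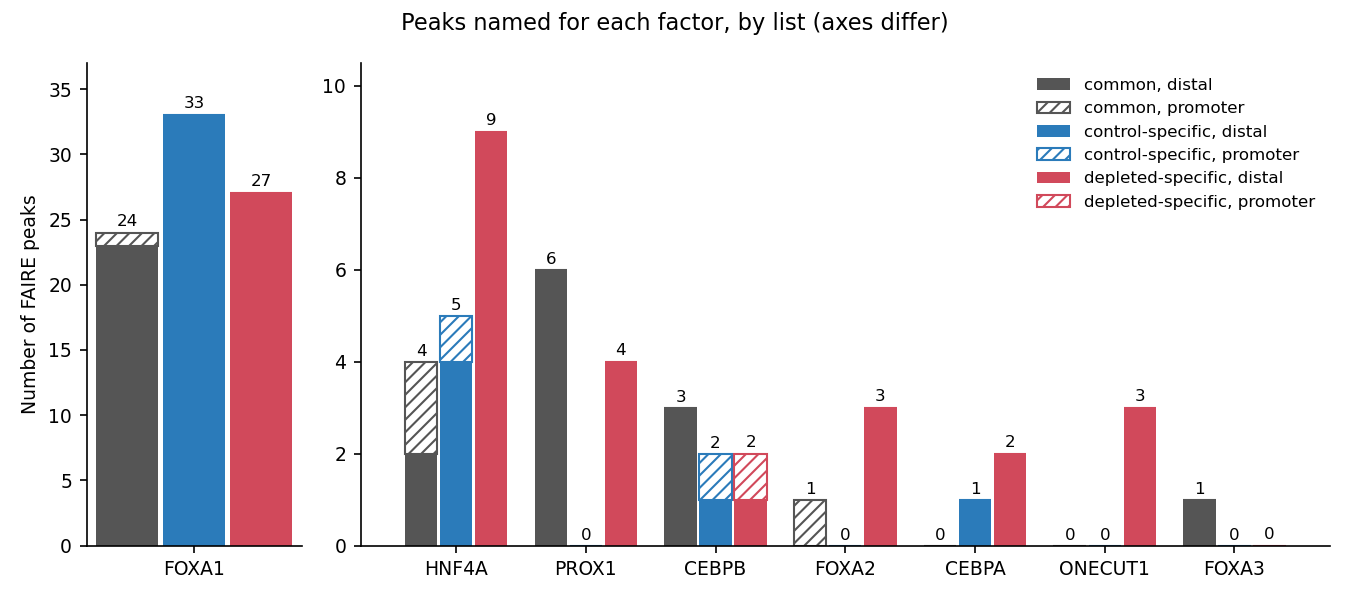
Number of FAIRE peaks (vertical axis) named for each factor in the common, control-specific and depleted-specific lists, with promoter peaks hatched; FOXA1 has its own axis. FOXA1 has 24, 33 and 27 peaks, while ONECUT1 has depleted-specific peaks alone and FOXA3 a single common peak.

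The chromosome of a factor bears on its number of peaks. Control-specific peaks were unevenly spread, at 36.7 per Mb on chromosome 14 and 54.3 per Mb on chromosome 20 against a median of 1.53 per Mb over chromosomes. FOXA1 lies on chromosome 14, and HNF4A, FOXA2 and CEBPB lie on chromosome 20. The sources used here state no correction for input DNA or copy number, and the part of copy number in these counts was not tested. Counts were therefore set beside those of genes on the same chromosome. The 84 peaks of FOXA1 were reached by 3.64% of the protein-coding genes of its chromosome, and the 10 peaks of PROX1 by 0.291% of those of chromosome 1. Of the 9247 peaks of chromosome 14, however, 8607 lay between 20 and 45 Mb, where FOXA1 lies. A rank among the genes of that segment was not computed, so the 3.64% does not account for the place of FOXA1. Of the 10 peaks of PROX1, 7 lay beyond the end of the gene, as far as 138321 bp from a listed start. A peak is named for its nearest gene, so the spacing of genes bears on a count, and the ranks do not account for it. CEBPA and ONECUT1, with 3 peaks each, were matched or passed by 4.48% and 7.46% of the genes of chromosomes 19 and 15. HNF4A was matched or passed by 21.2% and CEBPB by 56.4% of the genes of chromosome 20, FOXA2 by 73.6%, and FOXA3 by 47.2% of the genes of chromosome 19. Chromosomes with over 3 times the median density were 2, 6, 14, 16, 17 and 20. CEBPA, FOXA3, ONECUT1 and PROX1 lie on other chromosomes, and together they had 7 peaks in the common, 1 in the control-specific and 9 in the depleted-specific list. Over all peaks of their chromosomes (1, 15 and 19), depleted-specific peaks also outnumbered control-specific ones, with ratios of 2.64, 2.98 and 3.4.

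**Figure D2:**
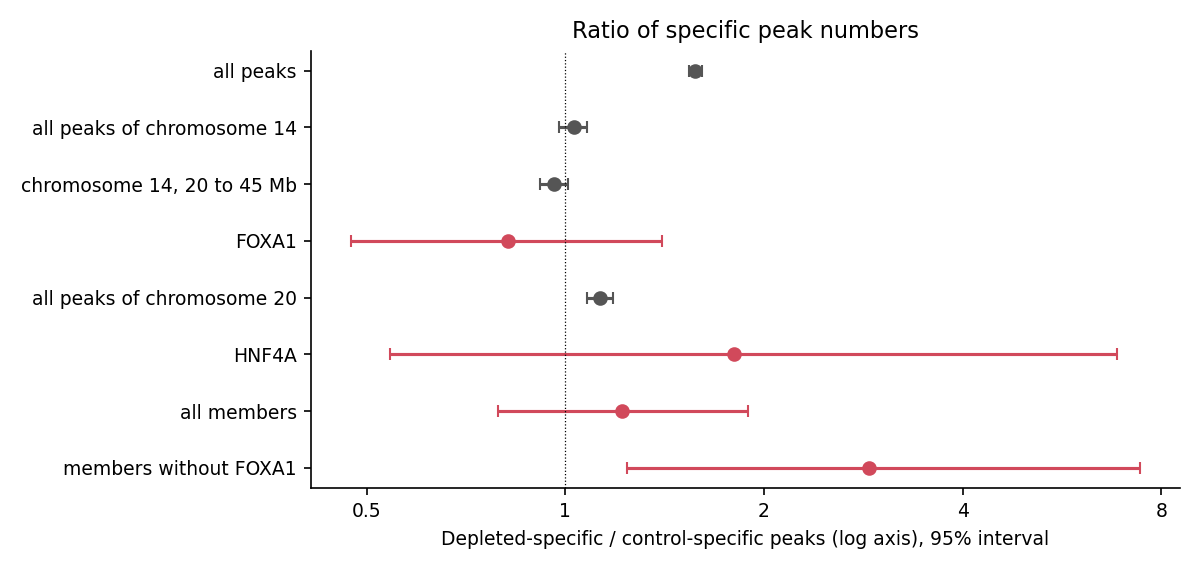
Ratio of depleted-specific to control-specific peak numbers (horizontal log axis) with its 95% exact binomial interval, for the factors in red and for reference sets in grey. FOXA1, at 0.818, overlaps its chromosome segment at 0.961, and the factors without FOXA1 lie at 2.88 against 1.57 for all peaks.

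At promoters, the common list held a promoter peak for 3 of the 8 factors (HNF4A, FOXA1 and FOXA2), where 15.0% of 20052 protein-coding genes had one. The control-specific list held one for 2 of 8 (HNF4A and CEBPB), against 3.73% of genes, and the depleted-specific list for 1 of 8 (CEBPB), against 11.9%. Counting a peak of any class, 6 of 8 factors had a common peak (27.4% of genes), 4 of 8 a control-specific peak (21.4%) and 7 of 8 a depleted-specific peak (36.9%). With 8 genes these counts are descriptions. The one factor with no depleted-specific peak under its own name was FOXA3. Within 100 kb of FOXA3, 4 depleted-specific peaks were named for other genes.

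The common promoter peaks lay at both promoters of HNF4A, at FOXA1 and at FOXA2. The HNF4A P2 peak scored 6.51 (16 tags, 9.15 to 26) and was centred 88 bp upstream of its start at position 44355699 of chromosome 20. The P1 peak scored 5.29 (13 tags, 6.92 to 22.2) and was also centred 88 bp upstream, of the start at 44401239. P1 is the promoter of the adult liver isoforms and P2 lies 45540 bp before it. The FOXA2 peak scored 9.35 (23 tags, 14.6 to 34.5) at 143 bp upstream of an alternative start and 1061 bp upstream of the main start. The FOXA1 peak, chr14:37595052-37595352, scored 6.91 (17 tags, 9.9 to 27.2) at 47 bp downstream of the start. The 4 intervals overlapped, so their order by tags is within counting error.

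CEBPB was the only factor with promoter peaks in both specific lists. The control-specific peak scored 7.73 (19 tags, 11.4 to 29.7) and was centred 121 bp upstream of a start at chr20:50190559-50190859. The depleted-specific peak, chr20:50190162-50190462, scored 8.11 (16 tags, 9.15 to 26) and was listed 271 bp upstream of an alternative start of the gene. The peaks do not overlap, their centres lie 397 bp apart, and both are centred upstream of the main CEBPB start. No common CEBPB peak was in the promoter class. The nearest common peak, 1367 bp upstream of the alternative start, scored 11 (27 tags, 17.8 to 39.3). The other common peaks lay 2943 and 4162 bp upstream of that start, with scores of 6.91 and 7.32. Beside them were a depleted-specific peak at 2565 bp upstream (6.08) and a control-specific peak at 6615 bp upstream (6.1). All 7 CEBPB peaks were thus centred upstream of the main start, which the control-specific promoter peak covers.

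**Figure D3:**
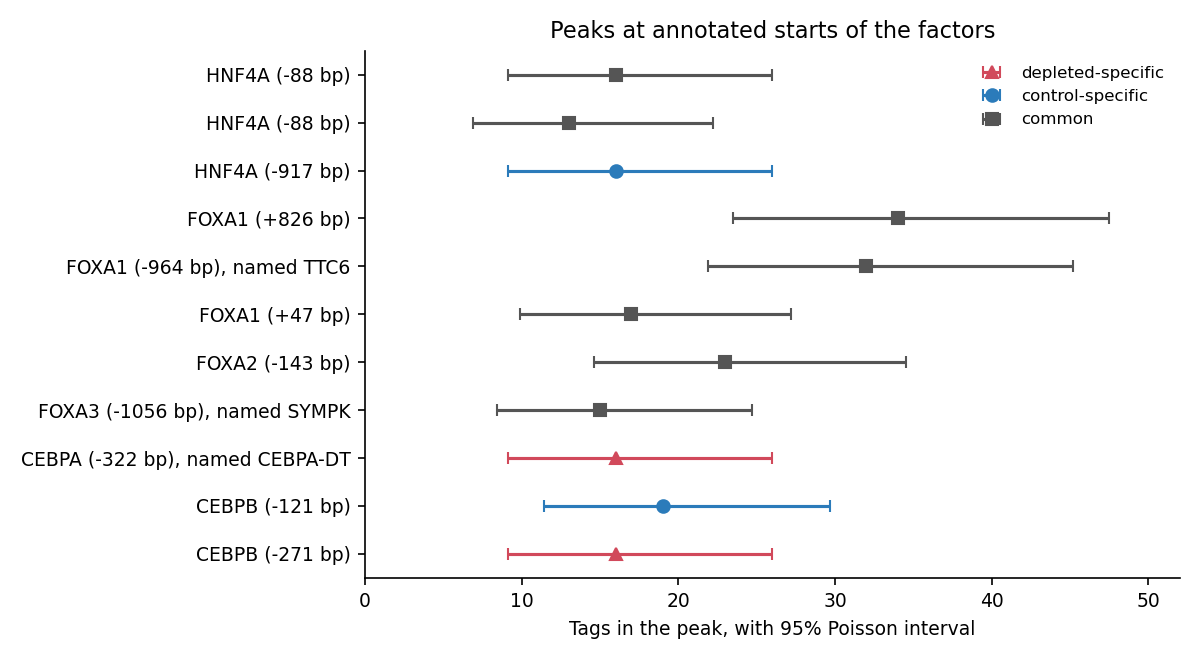
Tags in each peak at an annotated start of a factor (horizontal axis) with the 95% Poisson interval, coloured by list, with the distance to the start in parentheses. The intervals of most peaks overlap, from 13 tags at HNF4A P1 to 34 tags at the FOXA1 peak 826 bp downstream of the start.

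Peaks at 3 further starts were listed under a neighbour, since the annotation names a single nearest gene. A depleted-specific peak at CEBPA was named for its divergent transcript CEBPA-DT. It scored 8.11 (16 tags, 9.15 to 26) and was centred 322 bp upstream of the CEBPA start. A common peak 964 bp upstream of the FOXA1 start was named TTC6, although its class is the promoter of a FOXA1 transcript, and it scored 13 (32 tags, 21.9 to 45.2). A common peak named SYMPK, with a score of 6.1 (15 tags, 8.4 to 24.7), lay 1056 bp upstream of the main FOXA3 start and nearer to another FOXA3 start. It was centred 123 bp upstream of the SYMPK start, and its class is the promoter of a SYMPK transcript. With these counted, 6 of the 8 factors had a peak that reached within 1000 bp upstream to 100 bp downstream of a GENCODE start. ONECUT1 and PROX1 had none by this rule. An ONECUT1 peak 165 bp downstream of a deposited start was centred 464 bp downstream of the nearest GENCODE start. The share of all protein-coding genes by this rule was not computed, so the count is a description.

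FOXA1 was the factor with the most peaks, 24 common, 33 control-specific and 27 depleted-specific, all downstream of its start. Upstream peaks went to TTC6, which took 20, 25 and 15 of the peaks within 100 kb, where any name gave 34, 41 and 29. The gene is short and lies on the minus strand, so most of its peaks fall in the neighbouring gene MIPOL1, which held 72 of the 84 (17 common, 32 control-specific and 23 depleted-specific). The ratio of depleted-specific to control-specific peaks was 0.818 (0.473 to 1.4), beside 0.961 (0.914 to 1.01) for chromosome 14 between 20 and 45 Mb and 1.03 (0.979 to 1.08) for the whole chromosome. The interval of FOXA1 holds both values. In the 200 kb downstream of the start there were 12.5 common, 16.5 control-specific and 13.5 depleted-specific peaks per 100 kb, against 9.36, 12.8 and 12.3 in that segment.

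Common peaks made up most of the peaks named FOXA1 close to its start, and upstream peaks, named TTC6, are not counted here. Within 10 kb of the start there were 6 common, 1 control-specific and 2 depleted-specific peaks. From 10 to 50 kb the counts were 4, 5 and 7, from 50 to 100 kb 4, 9 and 5, and beyond 100 kb 10, 18 and 13. The share of common peaks thus went from 66.7% of 9 peaks within 10 kb to 24.4% of 41 peaks beyond 100 kb. The highest scores were also in the common list. The peak printed above, 128669 bp downstream of the start and inside MIPOL1, scored 19.5 (48 tags, 35.4 to 63.6), and 0.615% of common peaks scored as high. It was followed by 13.8 (34 tags, 23.5 to 47.5) at 826 bp and 13 (32 tags, 21.9 to 45.2) at 48197 bp. The specific peaks of FOXA1 had a median score of 6.1 with a highest of 8.13 in the control-specific list, and a median of 7.1 with a highest of 9.63 in the depleted-specific list, which is on another scale.

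**Figure D4:**
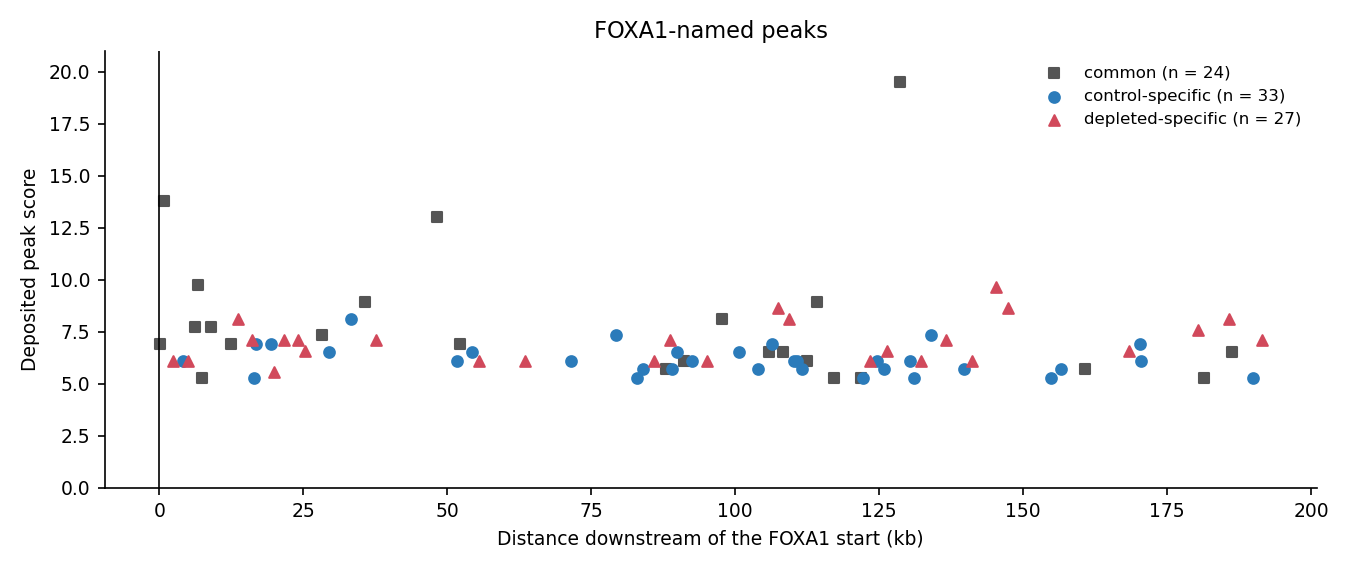
Deposited score (vertical axis) against distance downstream of the FOXA1 start in kb (horizontal axis) for the 84 peaks named FOXA1, by list. Common peaks reach 19.5, while specific peaks of both lists lie between 5.29 and 9.63 along the whole stretch.

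HNF4A, the nuclear receptor, was listed with 4 common peaks, 5 control-specific and 9 depleted-specific, a ratio of 1.8 (0.542 to 6.84), beside 1.13 (1.08 to 1.18) for chromosome 20. Upstream of P2 there were 2 common, 3 control-specific and 1 depleted-specific peaks. Between P2 and P1 there were 1, 2 and 6. From 1000 bp before P1 there were 1, 0 and 2. The depleted-specific peaks thus lay mostly in the first intron that follows P2. They were low, with scores from 5.58 to 6.59, and the control-specific peaks scored 4.88 to 6.51. The highest HNF4A peak was common, at 15087 bp downstream of the nearest start, and scored 10.2 (25 tags, 16.2 to 36.9). A control-specific peak in the promoter class, 917 bp upstream of P2, scored 6.51 (16 tags, 9.15 to 26). The remaining upstream peaks lay at 2599 bp (depleted-specific, 6.08), 3499 bp (common, 8.54), 4725 bp (control-specific, 5.69) and 6272 bp (control-specific, 5.29).

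The excess of depleted-specific peaks named HNF4A inside the gene depended on naming. Peaks inside the gene numbered 2 common, 2 control-specific and 8 depleted-specific under the name HNF4A, but 9, 13 and 14 under any name, a ratio of 1.08 (0.47 to 2.49). HNF4A-AS1, an antisense transcript that starts within the gene, took 2 common, 5 control-specific and 5 depleted-specific of them. From 1000 bp before P1 to the end of the gene, peaks of any name numbered 6, 6 and 3. The highest peak in the gene, a common one named HNF4A-AS1, lay 6466 bp before P1 and scored 14.6 (36 tags). Its start also had a control-specific peak of 9.35 (23 tags) and a depleted-specific peak of 8.62 (17 tags), 5617 and 4863 bp before P1.

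**Figure D5:**
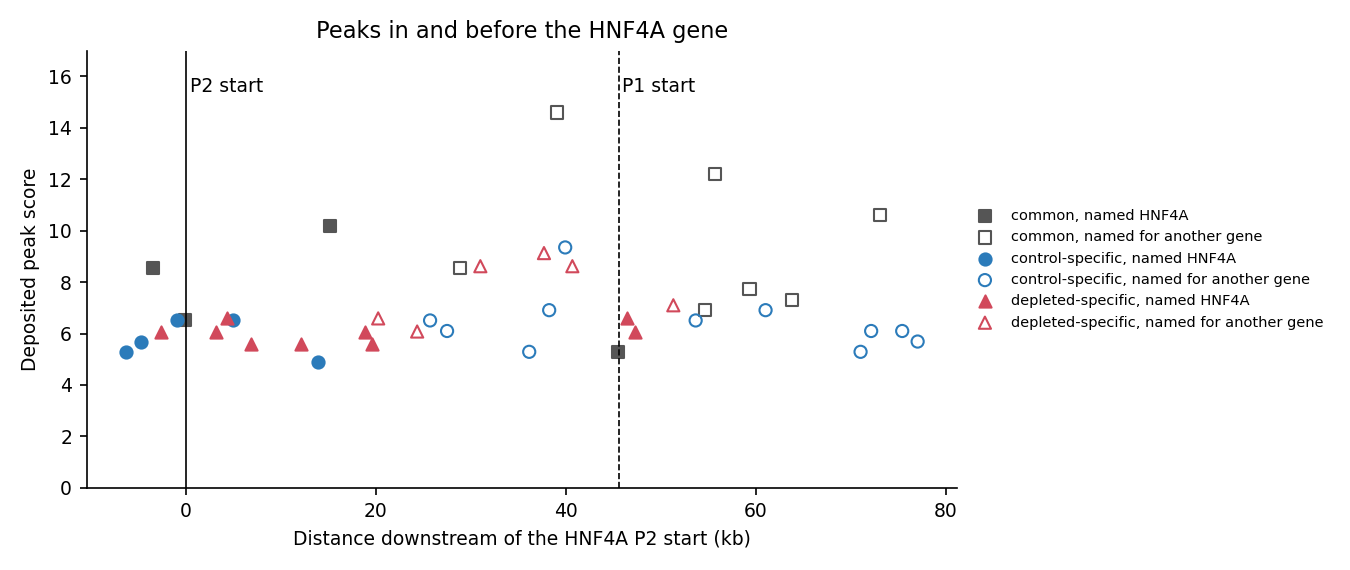
Deposited score (vertical axis) against distance downstream of the HNF4A P2 start in kb (horizontal axis), by list. Filled symbols are peaks named HNF4A and open symbols are peaks inside the gene named for another gene; the highest, at 14.6, lies 6466 bp before P1.

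The remaining factors had few peaks, mostly depleted-specific or common. FOXA2 had depleted-specific peaks 2180, 5593 and 8756 bp upstream of its alternative start, and farther from its main start. They scored 6.08, 5.58 and 6.08, and FOXA2 had no control-specific peak under its own name. Within 100 kb of FOXA2 under any name, however, the lists held 13, 20 and 28 peaks (common, control-specific and depleted-specific), of which the long non-coding LINC00261 took 8, 13 and 17. CEBPA had a control-specific peak 7341 bp downstream of its start (5.29) and depleted-specific peaks at 9250 bp (6.59) and 26315 bp (7.6). FOXA3 had 1 common peak, 9749 bp downstream and at the end of the gene, with a score of 7.32 (18 tags, 10.7 to 28.4).

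PROX1 and ONECUT1 had no control-specific peak and no promoter peak under their own names. Within 100 kb under any name, ONECUT1 had 1 control-specific peak and PROX1 had 0. The 6 common peaks of PROX1 lay 39010 to 138321 bp downstream of a listed start that is not its main start. They scored 5.29 to 6.91, and those at 62318 and 62513 bp overlap one another. The 4 depleted-specific peaks of PROX1 lay at 14171, 56205, 133677 and 136410 bp from the same start and scored 9.13, 7.1, 6.08 and 6.08. The first of these, inside an intron of PROX1, held 18 tags (10.7 to 28.4), and 5.86% of depleted-specific peaks scored as high. ONECUT1 had 3 depleted-specific peaks, scored 5.58, 6.59 and 6.08. They lay 165, 45290 and 47518 bp downstream of a listed start that is not the main start of the gene. The first lies in a non-coding exon near that start. On chromosomes 1 and 15 the ratio over all peaks was 2.64 (2.37 to 2.93) and 2.98 (2.42 to 3.67).

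Specific peaks often lay near a peak of another list. Of the control-specific peaks of the factors, 14 of 41 (34.1%, exact interval 20.1 to 50.6) were centred within 1000 bp of a peak in another list, and of the depleted-specific peaks 13 of 50 (26%, 14.6 to 40.3). Over all peaks these shares were 21.7% and 14.8%, and on chromosome 14, where FOXA1 lies, 41.8% and 38.5%. None of the specific peaks of the factors overlapped a peak of another list. In the full control-specific list 38 of 16236 peaks did so, and in the full depleted-specific list 0 of 25555. The lack of overlap therefore does not set the factors apart. Median scores were 6.91 for the common peaks of the factors and 6.51 for all common peaks, 6.1 and 5.69 for control-specific peaks, and 6.34 and 6.08 for depleted-specific peaks, with medians of 12 tags for both of the last.

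The distal peaks of the factors held the motifs in shares close to those of all distal peaks, within 100 bp of the peak centre. A FOXA motif was present in 13 of 123 distal peaks (10.6%, exact interval 5.75 to 17.4), against 10.4% of all distal peaks. By list the shares were 3 of 35 common peaks (8.57%), 2 of 39 control-specific (5.13%) and 8 of 49 depleted-specific (16.3%, 7.32 to 29.7), against 13.4%, 8.56% and 10.3% of all distal peaks. Each interval held the value of all distal peaks. C/EBP matches were in 13% against 12.7%, NFY in 26.8% against 26.2%, the NR2E match in 13.8% against 14.5% and Sp1 in 3.25% against 4.45%. HNF4, ONECUT, HNF1 and KLF matches were each in 1 of 123 distal peaks (0.813%), against 2.34%, 0.97%, 0.642% and 2.27%. Within the same 100 bp of the centre, 4 of the 7 promoter peaks held an Sp1 motif (57.1%, 18.4 to 90.1) against 53.8% of all promoter peaks, and 1 each held an ONECUT match and an NR2E match. Over the whole peak, 5 of 7 held an Sp1 motif (71.4%) against 62.3%. The NFY letters were in 0 of 7 near the centre, which the exact interval allows up to 41%, against 36.6% of all promoter peaks, and in 2 of 7 over the whole peak (28.6% against 44.7%), the HNF4A P2 peak among them. GC content had a median of 60.8% in the promoter peaks of the factors and 41.5% in their distal peaks, against 62.1% and 43.9% over all peaks.

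Among 28 other liver factors, 23 had a peak (52.7% of protein-coding genes did), with 33 peaks in the common, 31 in the control-specific and 61 in the depleted-specific list and a ratio of 1.97 (1.26 to 3.14). Promoter peaks were common for 6 of the 28 (15.0% of protein-coding genes), control-specific for 2 (3.73%) and depleted-specific for 6 (11.9%). The control-specific ones were at CEBPG, a dimer partner of the C/EBP factors (5.69), and RXRA, the shared partner of nuclear receptors (6.1). The depleted-specific ones were at ATF5 (5.07), DBP (7.6), HLF (6.59), NR2F2 (6.08), NR5A2 (8.62) and TCF7L2 (6.08). DBP and HLF are clock-controlled PAR zipper factors, NR2F2 and NR5A2 are nuclear receptors, and TCF7L2 is a partner of β-catenin in Wnt signalling. Among the factors with many peaks were HLF (32), TBX3 (18) and SOX9 (11). As a check of the labelled cells, 9 of 10 hepatocyte secretory genes had a peak, against 52.7% of protein-coding genes, and TTR had none. Of the 10, 5 had a common promoter peak (APOA1, APOA2, APOB, APOH and SERPINA1), against 15.0%. ALB, AFP and FGB had no common peak and no promoter peak in any list, and the promoter peak of TF was control-specific. The peaks of the 10 genes numbered 13 in the common, 17 in the control-specific and 31 in the depleted-specific list. APOB alone held 23 of them, and the chromosomes of the 10 genes were not taken into account in this check.

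For the factors with 5 or more peaks, the gene with the most similar peak counts was found over 6 values, the log2 of promoter and distal peak numbers plus 1 in each list, among 10564 genes with a peak. It was HPCAL1 for HNF4A (Euclidean distance 0.737), NFKBIA for FOXA1 (0.527), ITPA for CEBPB (0.415) and ABCA1 for PROX1 (0.322). NFKBIA lies on chromosome 14 like FOXA1 and ITPA on chromosome 20 like CEBPB, while HPCAL1 (chromosome 2) and ABCA1 (chromosome 9) lie on other chromosomes than HNF4A and PROX1.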

How the data were processed

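FAIRE-seq libraries from HepG2 cells, 1 per group, were grouped by the labelled treatment. Per the submitters' processing notes, the reads were handled with bcl2fastq 2.17, Trimmomatic 0.39, Bowtie2 2.4.5 and SAMtools 1.14 on hg38. The authors called and annotated peaks with HOMER. How common and specific peaks were split, and any input or copy-number correction, are not given in the sources used here. The deposited peak score is the authors' scaled tag number. Below a score of 10, each list's values fell on 1 step (100% within 0.005), and tags are score divided by step. Distances to a start were deposited too.

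Member peaks were rows whose gene name was 1 of the 8 factors. All 8 factors were named, and other liver factors only where they had a promoter peak in a specific list or were among the 4 with the most peaks, of which 1 is not reported here. The members and lists were chosen with earlier results of these data known. Starts and exons came from GENCODE v44 and sequence from the hg38 reference, and starts implied by the deposited distances were also masked. Of 10676 protein-coding names in the lists, 10567 matched. Ratios and shares have exact (Clopper-Pearson) binomial and tags exact Poisson 95% intervals, covering counting error only. No p-value was computed, since each group had 1 library. Calculations were tested on simulated data. Tables were handled in Python 3.11.15 with pandas 2.3.3 and numpy 2.4.6, intervals came from scipy 1.17.1, and plots from matplotlib 3.10.9. Alternatives changed the naming, the score limit, the promoter window, the merging of peaks and the members included.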

Additional observations from a re-analysis of the deposited data

How the results depend on the processing

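Of the 81 alternative values computed, 66 moved by less than a set limit, 15 moved and none was labelled as reversed. Most of the values are counts or shares, which have no direction to reverse. Some could not change, since the factor left out had no such peak. Within 100 kb of a start under any name there were 98 common, 124 control-specific and 127 depleted-specific peaks. At scores of 6.08 or more there were 30 common, 24 control-specific and 44 depleted-specific peaks and a ratio of 1.83, against 2.61 for all peaks at that limit. The limit was the same score on both scales, not the same number of tags. Without FOXA1 there were 15, 8 and 23 peaks and a ratio of 2.88. That lay above the 1.57 of all peaks, while the 1.22 with FOXA1 lay below it. With specific peaks near another list taken as shared, 27 control-specific peaks were left. Without the dense chromosomes the ratio was 9, from 9 and 1 peaks, so it rested on 1 control-specific peak. Over all peaks of chromosomes 1, 15 and 19, where these factors lie, the ratios were 2.64, 2.98 and 3.4. Within 500 bp of a start, 1 factor had a control-specific promoter peak. For depleted-specific peaks the number was 2, 3 and 5 within 500, 1000 and 3000 bp, and 2 for any name at an annotated start. The shares of all protein-coding genes under these windows were not computed, so these counts have no background. No replicate could be left out. No paired analysis was possible because control and depleted cells have a single library each. Tag numbers of about 11 to 48 per peak limit what can be told apart, and the total depth is unknown.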
